A study of Mus musculus with 2 samples.

Results

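The regions described here are DNase I hypersensitive peaks in the first introns of protein-coding genes, away from start sites, in thymus of aged mice. A peak was taken when it was in the shorter of the 2 peak lists of its library (the main list), overlapped a main-list peak of the other library by at least 1 bp, and had its centre more than 1 kb from every start site of any annotated gene, in no exon, and inside the first intron of the longest protein-coding transcript of a gene, on an autosome. Of 50648 main-list peaks in replicate 1, 2379 met the rule, and of 49872 in replicate 2, 2366 did. These were 6.08% and 6.05% of the autosomal peaks found in both libraries. Overlapping peaks of the 2 libraries were joined into 2357 sites, of which 2311 held a qualifying peak from each library.

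DNase I cuts DNA where nucleosomes are displaced, so a hypersensitive peak marks open chromatin at promoters, enhancers, silencers and insulators. The first intron is the intron nearest to the promoter, often long, and is a known home of enhancers and silencers that act on the gene they lie in. In thymocytes the classical case is Cd4, the co-receptor gene whose silencer in the first intron is bound by RUNX factors and keeps the gene off in cells of the CD8 lineage. Short stretches inside a peak that DNase I cuts less often than their surroundings are called footprints and can mark a bound protein.

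The study is a DNase-seq assay, the sequencing of DNase I cuts, on thymus of adult female B6CASTF1/J mice, the F1 hybrid of C57BL/6J and CAST/EiJ, aged 18 to 20 months. There was 1 group of 2 libraries and no treated, younger or other-strain group, so no comparison between conditions exists and the values below are descriptions without a test. Both libraries name 1 donor record but different biosample records, and nothing states that the tissue came from different animals, which means that their spread may be purely technical. The number of reads behind each library is unknown, since the files hold peaks and no counts. Both member sets come from the same overlaps seen from either library, and an SD over 2 libraries is narrower for such values than for independent ones. The whole thymus holds mostly thymocytes with some epithelial, stromal and other cells, and fewer cells of a type cannot be told apart from less open chromatin per cell.

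The 9 sites shown next carry the findings and are given on the plus strand of GRCm38, the assembly behind mm10, as read from RefSeq; it is the C57BL/6J sequence, and the CAST/EiJ allele was not analysed. Lower case is the site, and capitals mark matches, on either strand, to a consensus for RUNX (TGTGGTT), ETS (AGGAAGT), TCF and LEF (CTTTGAA and a variant ending in T), MYB (AACNGCC), an E-box (CAGCTG) or CTCF, whose longer consensus is given by name. ETS matches can also be matches to the longer PU.1 consensus. The site of Ccnd3 is shown because it is among the strongest, both sites of Cd4 because of the known silencer, and the sites of Kif21b, Cd247, Runx3 and Myb because they lie in T cell or site-dense genes and hold matches. The last pair, in Agrp and Sept9, are the matched peaks with a CTCF consensus that were strongest in replicate 1. The second site of Cd4 and the sites of Kif21b, Agrp and Sept9 were chosen after their values were seen.
Ccnd3, chr17:47508001-47508220: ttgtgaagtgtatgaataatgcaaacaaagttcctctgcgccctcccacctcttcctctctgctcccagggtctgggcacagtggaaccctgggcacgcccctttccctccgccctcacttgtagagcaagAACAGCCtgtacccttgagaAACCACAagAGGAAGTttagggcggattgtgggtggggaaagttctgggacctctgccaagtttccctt
Cd4, chr6:124885221-124885480: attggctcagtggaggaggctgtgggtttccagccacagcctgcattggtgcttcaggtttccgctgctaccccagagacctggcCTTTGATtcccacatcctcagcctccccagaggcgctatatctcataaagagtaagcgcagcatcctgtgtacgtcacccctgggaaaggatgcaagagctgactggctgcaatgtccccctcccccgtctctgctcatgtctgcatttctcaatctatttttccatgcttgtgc
Cd4, chr6:124886066-124886365: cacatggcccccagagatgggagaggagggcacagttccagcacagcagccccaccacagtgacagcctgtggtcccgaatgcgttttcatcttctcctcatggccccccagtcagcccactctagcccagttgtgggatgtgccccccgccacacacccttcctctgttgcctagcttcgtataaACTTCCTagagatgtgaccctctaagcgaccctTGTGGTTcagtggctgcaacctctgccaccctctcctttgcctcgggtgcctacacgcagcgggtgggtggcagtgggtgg
Kif21b, chr1:136135141-136135360: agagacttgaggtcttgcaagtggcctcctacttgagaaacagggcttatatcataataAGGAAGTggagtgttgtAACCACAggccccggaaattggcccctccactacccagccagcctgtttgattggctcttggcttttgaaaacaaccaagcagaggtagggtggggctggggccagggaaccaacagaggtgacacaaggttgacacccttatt
Cd247, chr1:165802021-165802260: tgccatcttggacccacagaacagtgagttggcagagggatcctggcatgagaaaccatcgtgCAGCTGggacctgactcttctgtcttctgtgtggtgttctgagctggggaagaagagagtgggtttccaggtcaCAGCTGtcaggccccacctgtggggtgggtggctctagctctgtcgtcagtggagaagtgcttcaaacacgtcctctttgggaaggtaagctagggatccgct
Runx3, chr4:135150521-135150740: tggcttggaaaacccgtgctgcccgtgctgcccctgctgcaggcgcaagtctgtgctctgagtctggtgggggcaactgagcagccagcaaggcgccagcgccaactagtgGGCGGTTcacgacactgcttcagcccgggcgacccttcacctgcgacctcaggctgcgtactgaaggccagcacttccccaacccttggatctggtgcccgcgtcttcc
Myb, chr10:21158981-21159280: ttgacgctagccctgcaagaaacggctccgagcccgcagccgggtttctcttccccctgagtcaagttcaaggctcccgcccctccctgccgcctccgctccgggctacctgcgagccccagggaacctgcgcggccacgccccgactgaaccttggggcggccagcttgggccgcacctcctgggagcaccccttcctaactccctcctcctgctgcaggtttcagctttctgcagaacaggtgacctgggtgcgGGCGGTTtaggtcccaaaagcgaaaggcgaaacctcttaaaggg
Agrp, chr8:105622461-105622760: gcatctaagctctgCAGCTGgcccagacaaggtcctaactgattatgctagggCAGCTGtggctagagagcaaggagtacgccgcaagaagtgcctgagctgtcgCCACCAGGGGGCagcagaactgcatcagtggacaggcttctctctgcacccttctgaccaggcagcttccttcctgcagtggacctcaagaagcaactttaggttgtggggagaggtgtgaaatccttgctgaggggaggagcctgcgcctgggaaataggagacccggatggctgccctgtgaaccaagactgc
Sept9, chr11:117238221-117238460: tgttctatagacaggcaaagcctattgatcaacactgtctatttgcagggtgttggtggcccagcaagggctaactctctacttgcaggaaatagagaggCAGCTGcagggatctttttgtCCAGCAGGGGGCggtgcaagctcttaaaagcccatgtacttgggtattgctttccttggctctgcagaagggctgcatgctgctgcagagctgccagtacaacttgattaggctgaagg

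Cd4 and Myb are transcribed from the minus strand, as is Agrp, and the other genes from the plus strand. Where the site was wider than 300 bp, at the second of Cd4 and at Myb, the central 300 bp are shown. A match is a match of letters, not a shown binding site. In the second site of Cd4 the RUNX match lay in a footprint of replicate 1 and not of replicate 2, and the ETS match in neither. In Kif21b, a kinesin gene, the RUNX match lay in a footprint of replicate 2 only. In Ccnd3 the RUNX and MYB matches lay in a footprint of neither library. The MYB matches in Runx3 and in Myb itself lay in footprints of both. Over all first-intron peaks, 19.7% of MYB matches in replicate 1 and 15.1% in replicate 2 had their central base in a footprint. Footprints covered 18.8% and 19.5% of the bases. For the printed matches an overlap of 1 bp was enough. That rule is looser, so these shares are not a background for the printed matches. The CTCF matches in Agrp and Sept9 lay in footprints of both libraries.

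The first-intron peaks were of the ordinary size for peaks away from start sites. Their median width was 200 bp in both libraries, and their median signal, in the units of the authors' peak files, was 1.64 in replicate 1 and 1.49 in replicate 2. Later introns, defined on the same transcripts by the same rule, had 1.62 and 1.28, peaks between genes 1.72 and 1.33, and peaks within 1 kb of a start site 3.02 and 2.65. The log2 difference of medians between first and later introns was 0.12 ± 0.14 (SD, n = 2), with 0.016 in replicate 1 and 0.22 in replicate 2. That between first introns and start sites was -0.86 ± 0.034 (SD, n = 2), with -0.88 and -0.83. These SDs are descriptions and not a test. The highest signal among first-intron peaks was 28.8 and 18.8. Of all first-intron peaks of the main lists, 75.8% and 69.8% overlapped the other library, compared with 79.5% and 80.5% of all autosomal peaks. This share is part of the rule and is given as a description.

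The 1 kb limit left no step in signal that both libraries shared. The 20 first-intron peaks nearest to it had a median signal of 1.91 in replicate 1 and 1.18 in replicate 2, and the 20 nearest peaks that it left out had 1.10 and 1.38.

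The sites were spread over many genes. Of 10791 genes with at least 1 kb of eligible first intron, 1419 held a site, which is 13.1% and the background for every list below. A single site was found in 968 of them, 2 sites in 258, 3 or 4 in 148 and 5 or more in 45. The genes with a site had longer eligible first introns, with a median of 19460 bp, than all genes, with 6393 bp. The median site lay 11297 bp from the start site of its own gene, the middle 50% between 3176 and 32363 bp, and 47.4% within 10 kb. The nearest start site of any gene was that of the host gene at 74.7% of sites, that of a non-coding gene at 20.0% and that of another protein-coding gene at 5.30%.

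One gene model stood apart. Gm20388, a readthrough model on chromosome 8, has a first intron of 4.38 Mb that spans 71 whole protein-coding genes, and 121 sites lay in it. Only 1 of the 98 sites assigned to it had its start site as the nearest. Without Gm20388 there were 2260 sites, the median distance was 10236 bp, the sites over 100 kb from their own start fell from 173 to 76 in number, and the own gene was the nearest at 77.9% of sites. In all, 84 first introns held a whole other protein-coding gene, and 151 sites lay in them.

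First introns held more peaks per length than later ones, and most of the surplus lay close to the start site. Their density was 12.3 peaks per Mb of eligible sequence in both libraries, against 8.99 and 8.94 in later introns, a ratio of 1.37 ± 0.00026 (SD, n = 2). As both sets hold the same overlaps, this SD does not show how far the libraries differ. With all main-list peaks of 1 library, shared or not, the ratio was 1.28 in replicate 1 and 1.49 in replicate 2. Counted by the number of the intron, with overlapping transcripts kept, first introns had 12.2 and 12.1 per Mb, second introns 9.58 and 9.56, and introns from number 11 on 7.99 and 8.00. Without Gm20388 the ratio was 1.33 ± 0.00091 (SD, n = 2). When the later introns were weighted to the distances from the start site at which first introns lie, the ratio was 1.03 ± 0.0032 with Gm20388 and 0.985 ± 0.0025 without it (SD, n = 2).

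By distance and without Gm20388, first introns were denser at 1 to 2 kb, with 40.77 and 40.04 peaks per Mb against 24.6 and 22.8 in later introns, a ratio of 1.71 ± 0.068 (SD, n = 2). The later-intron value rests on 56 and 52 peaks. The ratio was 1.21 ± 0.011 at 2 to 5 kb, 0.889 ± 0.0095 at 5 to 10 kb, 1.00 ± 0.0085 at 10 to 20 kb and 0.744 ± 0.0076 at 50 to 100 kb. Over 100 kb it was 0.519 ± 0.0051, and with Gm20388 the densities there were 6.09 and 6.15 against 5.23 and 5.22 per Mb, so that this one intron turned the direction. Beyond 20 kb, then, first introns held fewer peaks per length than later introns at the same distance.

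At 20 to 100 kb that deficit was not seen among genes with an open promoter. Among 11665 genes with a promoter peak in both libraries, and without Gm20388, first introns had 18.0 and 17.9 peaks per Mb against 12.2 and 12.1 in later introns. The ratio was 1.48 ± 0.0014 overall and 1.14 ± 0.0061 at matched distances (SD, n = 2). In these genes it was 1.07 ± 0.0083 at 20 to 50 kb, 1.09 ± 0.0079 at 50 to 100 kb and 0.905 ± 0.0012 over 100 kb.

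**Figure D1:**
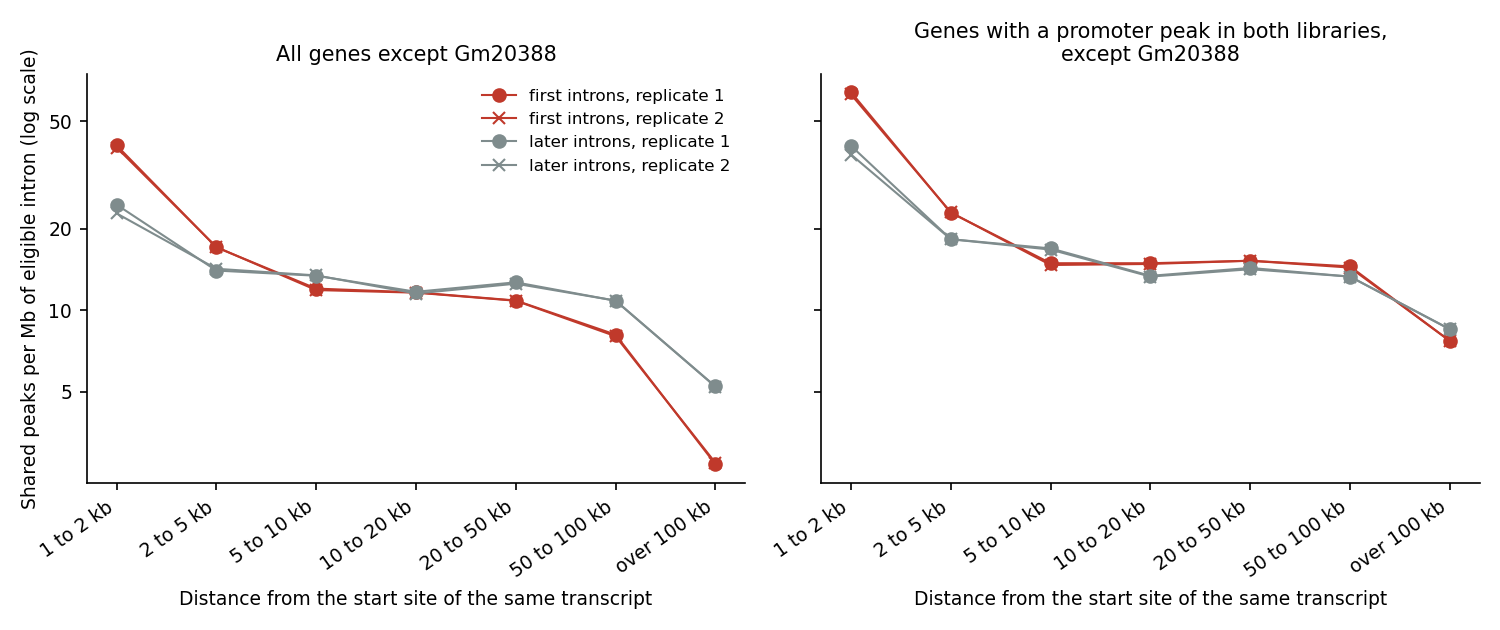
Shared peaks per Mb of eligible intron (log scale) by distance from the start site of the same transcript, for first introns (red) and later introns (grey) in replicate 1 (circles) and replicate 2 (crosses), without Gm20388. First introns are above later introns at 1 to 5 kb and below them from 20 kb on in all genes (left), and close to them from 10 kb on in genes with a promoter peak in both libraries (right).

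Most genes with a first-intron site had an open promoter. A promoter peak was a main-list peak centred within 1 kb of any start site of the gene. Both libraries had one at 1206 of the 1419 genes with a site, or 85.0%, where the background over all 10791 genes was 62% and the share among genes without a site was 58.5%. The difference was present at each intron length. With 1 to 5 kb eligible the shares were 85.0% with and 55.1% without a site, with 5 to 20 kb 82.1% and 63.8%, and with more than 20 kb 87.1% and 57.3%. Seen from the promoter, first introns held 18.4 and 18.3 peaks per Mb where both libraries had a promoter peak, 7.61 and 7.81 where 1 had, and 2.98 and 2.96 where neither had.

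The strength of the promoter peak and that of the site were nearly unrelated. Across the 1206 genes the Spearman correlation between the strongest promoter peak and the strongest first-intron peak was -0.018 in replicate 1 and 0.051 in replicate 2, across genes, which are not replicates. The promoter was usually the stronger, with a median signal of 5.42 and 4.77 against 1.88 and 1.66 for the site. In 174 genes, 14.4%, the strongest first-intron peak was above the strongest promoter peak in both libraries, not always by the same site.

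Genes of the T cell lists held first-intron sites at a higher share than all genes. The lists were chosen with earlier results of these data known, so the shares are descriptions and not independent support. Of 61 genes in 3 T cell lists with an eligible first intron, 31 held a site, 50.8% compared with 13.1% of all genes. Their introns were longer, with a median of 12.6 kb eligible, but the shares were also higher at like length, with 33.3% against 4.58% of all genes at 1 to 5 kb, 42.9% against 13.6% at 5 to 20 kb and 72.7% against 29.1% above 20 kb. Of the 61 genes, 59 had a promoter peak in both libraries, and 29 of those held a site. Among all 6692 genes with a promoter peak in both libraries, 1206 held a site, or 18.0%. The 7 lists for myeloid and dendritic cells, thymic epithelium, endothelium, fibroblasts, hepatocytes, neurons and skeletal muscle had no site in 43 genes. They are grouped here because they held none, and 16 of these genes had a promoter peak in both libraries. The B cell, adipocyte and erythroid lists had a site at 16.7%, 16.7% and 25% of 12, 6 and 4 genes. The cell cycle and housekeeping lists, with 6 and 2 genes, were at 50%, close to the T cell share. Over all 10 lists of other cell types 4 of 65 genes, 6.15%, held a site and 29 had a promoter peak in both libraries, so that the lists differed in promoters as well as in sites. Thymocyte genes named below, such as Cd4, Dntt and Bcl11b, were among the 31 T cell hosts. The T cell list genes without a site are not described below. The thymic epithelial list had only 5 genes with an eligible intron, too few to set against the background of 13.1%.

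Among surface and receptor genes 9 of 20 held a site. Cd247, which encodes the zeta chain of the T cell receptor complex, had 8 sites in 57.9 kb, with signals from 1.12 to 4.18 in replicate 1 and from 1.27 to 5.17 in replicate 2. Its strongest site in replicate 2, 13460 bp from the start, had 3.74 in replicate 1, and the strongest in replicate 1, at 65230 bp, had 4.18 and 2.90, so the libraries disagreed on the order. When replicate 1 was left out, so that the peaks of replicate 2 needed no partner, Cd247 had 17 sites. Cxcr4, the receptor for CXCL12, had 1 site, 1049 bp from its start, with 7.36 and 7.58. Ccr7, a chemokine receptor of mature T cells, had 1 with 5.39 and 3.44, and Dntt, the terminal transferase that adds nucleotides at V(D)J joints, 1 with 3.30 and 3.82.

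Cd4 held a pair of sites. The site 2870 bp from the start had a signal of 3.70 and 4.44, and the site at 1985 bp, whose window holds the RUNX match printed above, had 2.37 and 2.20. The Cd4 promoter had no main-list peak in replicate 1 and one of 1.79 in replicate 2, so both intronic sites were above any listed promoter peak of the gene. Whether either site is the silencer was not determined. Dntt showed the same order, with no promoter peak in replicate 1 and 1.66 in replicate 2. These 2 genes were the only ones of the 31 T cell hosts without a promoter peak in both libraries.

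Of the T cell transcription factors 17 of 23 held a site. Rora, a nuclear receptor gene, had 9, all at least 230815 bp from the annotated start of its longest transcript, the strongest with 4.35 and 4.70, and it had 15 when replicate 2 was left out. Foxp1, a forkhead factor, had 6 with a strongest signal of 2.94 and 3.26, and Hivep3, a zinc finger gene, and Tox, which is required for the CD4 lineage, had 5 each. In Hivep3 the site at 144956 bp stood out with 6.05 and 6.16, while its other sites lay between 0.931 and 1.90 in the 2 libraries, and without replicate 1 it had 9 sites. In Tox all 5 sites lay within 86891 to 89290 bp of the start and were weak, with 0.776 to 1.38. Bach2, a repressor that keeps T cells naive, had 4 sites, the strongest with 5.405 and 5.80. Fli1, an ETS factor, had 4, the strongest with 4.60 and 5.04, but 30 when replicate 1 was left out.

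Bcl11b, the zinc finger gene of T lineage commitment, held 3 sites in 12.6 kb. The signals were 2.94 and 2.24 at 1421 bp, 5.77 and 3.32 at 4671 bp, and 3.18 and 3.13 at 10381 bp, so that the middle site was the strongest in both libraries but by little in replicate 2. Without replicate 2 it had 6 sites. Runx3, the RUNX factor of the CD8 lineage, had 2 sites, with 1.42 and 1.54 at 8337 bp and 5.67 and 3.16 at 29979 bp. The second of these was 1865 bp from the nearest annotated start site, an internal start of Runx3. Myb, a factor of proliferating thymocytes, had 3.98 and 3.42 at 1774 bp and 4.13 and 2.79 at 2644 bp. Ets1 had 1 site (2 without replicate 1) with 2.83 and 4.92, the largest rise from replicate 1 to replicate 2 among the sites of the T cell genes plotted below.

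In T cell receptor signalling 5 of 18 genes held a site. Prkcq, the kinase PKC-theta, had 4, the strongest with 3.11 and 3.67. Its promoter had 2.06 and 1.93, below the intronic site in both libraries. Fyn, a Src-family kinase, had 3, with a strongest signal of 2.06 and 1.72 beside a promoter peak of 11.8 and 13.8. Of the 29 T cell hosts with a promoter peak in both libraries, 6 had a strongest first-intron peak above the promoter peak in both, among them Fli1, Runx3, Prkcq, Ctla4 and Cd247. In Cd247 a different site was above the promoter in each library, and no single site was above it in both.

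**Figure D2:**
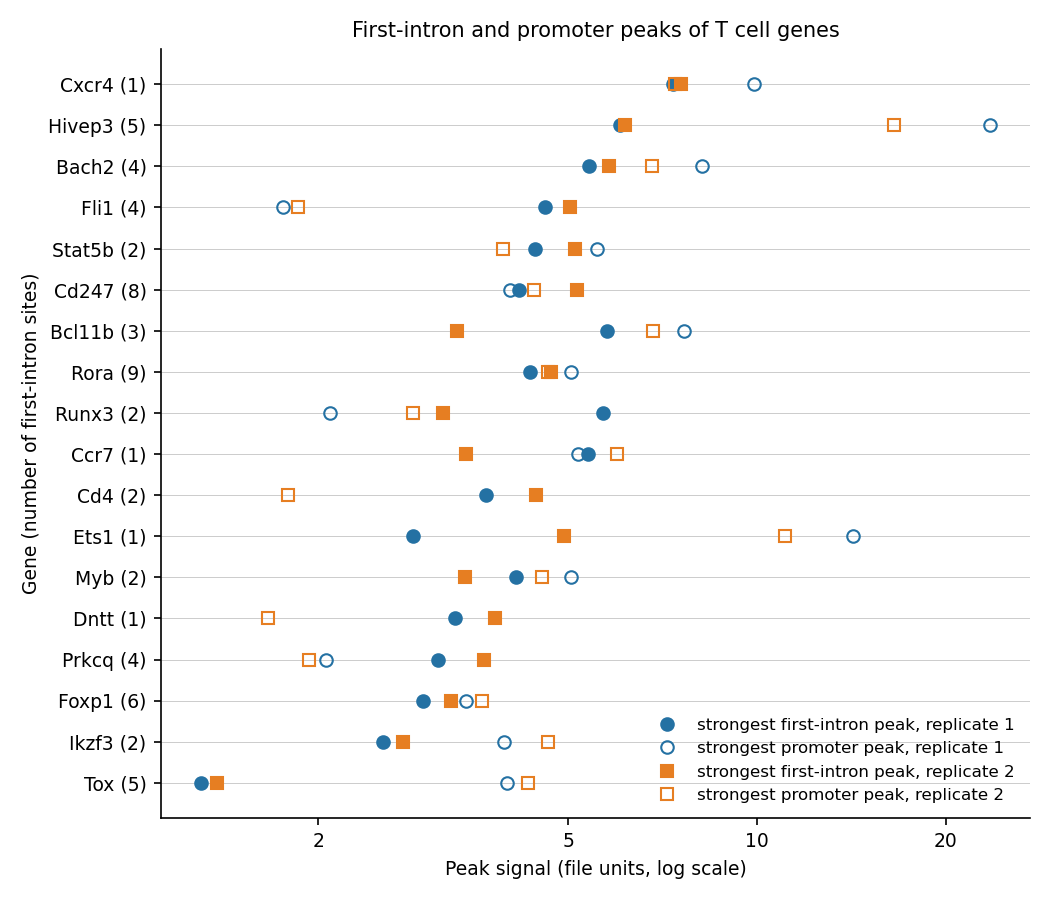
Signal (log scale) of the strongest first-intron peak (filled) and the strongest promoter peak (open) of T cell genes in replicate 1 (circles) and replicate 2 (squares), with the number of first-intron sites after each name. Fli1, Runx3, Prkcq and Cd247 have strongest first-intron peaks above their strongest promoter peaks in both libraries, and Hivep3 and Ets1 far below; Cd4 and Dntt show no promoter peak in replicate 1.

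Among the other lists the B cell list had 2 of 12 genes with a site, Syk with 2.60 and 3.26 and Cd74 with 2 sites, the stronger 1.84 and 2.17. Syk is a kinase also used by T cells at the pre-T cell receptor. Adipoq, the adiponectin gene and the one adipocyte gene of 6, had a weak site of 1.15 and 0.822 and no promoter peak. Ank1, an erythroid ankyrin, had 2 with at most 1.28 and 0.894 and no promoter peak. The cell cycle list had 3 of 6 genes with a site: Ccnd3, Cdkn1a, the p21 inhibitor, with 6.92 and 6.16, and Trp53 with 6.20 and 5.09. The Cdkn1a site was above its promoter peak, which had 2.19 and 2.26.

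Ccnd3, which encodes the cyclin D3 that thymocytes need to expand, had the strongest cluster of sites among these genes. Its 9 sites lay in 70.5 kb of eligible first intron, and with replicate 1 left out there were 30. The site at 3060 bp had a signal of 17.5 and 18.8 and the site at 6260 bp had 14.5 and 11.1, against 8.55 and 6.88 at the promoter. In replicate 2 the first of them was the strongest of all first-intron peaks.

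The strongest site of replicate 1 was in Il31ra, a cytokine receptor gene, 2421 bp from its start, and the libraries differed in it more than in any other of the 15 strongest sites. It had 28.8 in replicate 1 and 12.2 in replicate 2, and Il31ra had no promoter peak in either library. The site of Nr1d1, which encodes the clock repressor REV-ERB alpha, had 14.7 and 16.5 at 1342 bp from the start. Fmnl1, a formin of blood cells, had 8.63 and 12.9, Hdac7, a deacetylase of thymocytes, 9.57 and 11.3, Mnt, a repressor of the MYC network, 10.5 and 9.92, and Csk, the kinase that restrains Lck and Fyn, 8.45 and 10.95. The remaining ones were in Gm20388, Pura, Gtf2ird1, Zfp516, Agrp, Trp53i11 and Fam163b, with signals between 8.53 and 14.95 in the 2 libraries. None of the 15 lay mostly in annotated repeats, the highest share of repeat bases being 28.5%, in Zfp516.

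After Gm20388, most sites lay in Maml3, a Notch co-activator gene, with 14, and in Ext1, a heparan sulfate polymerase gene, with 10. Agrp, Cd247 and the lipid kinase gene Pip4k2a had 8 each, and Gse1, Kif21b, Tmigd3 and Ldlrad4 7 each. Leaving out a library changed this order: Agrp had 13 without replicate 2, and Cd247 had 17 and Ccnd3 and Fli1 30 each without replicate 1. Tmigd3 had no promoter peak in either library although its strongest site had 4.72 and 5.28. By length, among genes with at least 10 kb eligible and 3 sites, Kif21b was the densest, with 57.6 sites per 100 kb of its 12.1 kb, followed by Fam78a with 46.3 and Ptp4a3 with 26.7. The strongest of the 7 sites of Kif21b had 6.26 and 7.42, while none of the 5 in Fam78a (11 without replicate 1) was above 1.27 and 1.31. Without Gm20388, the site farthest from its own start was in Fam155a, 537640 bp away, with 1.40 and 0.574.

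Base composition set first-intron peaks apart from the rest of the intron and little from later-intron peaks. In windows of 200 bp around the centre the GC content was 54.0% and 53.9%, against 52.6% and 52.7% in later-intron peaks, 63.7% and 63.4% at start sites, and 42.8% in 940916 windows of eligible first intron outside every listed peak. The mean number of CpG dinucleotides was 4.57 and 4.47, against 3.57 and 3.58 in later introns and 1.71 outside peaks. Bases in repeats made up 12.1% and 11.9%, against 28.7% outside peaks.

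CTCF consensus sequences were about 0.469 times as common in first-intron peaks as in later-intron peaks. CTCF is the zinc finger protein that anchors chromatin loops and insulates domains. Its consensus was in 7.02% and 7.06% of first-intron peaks, or 167 peaks in each library, but in 15.1% and 14.9% of later-intron peaks. Between genes the mean was 14.99%. Outside peaks 0.0528% of windows held it. The consensus read backwards was in no first-intron peak, but its share outside peaks is not given, so this count cannot serve as a control of composition. The ratio of first to later introns was thus 0.469 ± 0.0050 (SD, n = 2). With all main-list peaks of 1 library, shared or not, it was 0.494 in replicate 1 and 0.448 in replicate 2. Per Mb of eligible sequence, peaks with the consensus numbered 0.866 in first introns of both libraries, against 1.36 and 1.34 in later introns, while peaks without it numbered 11.5 and 11.4 against 7.63 and 7.61.

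The lower CTCF share held over distance and promoter state. It was 2.56% and 3.13% in first introns at 1 to 2 kb from the start against 7.14% and 7.69% in later introns, with 4 peaks behind each later value. At 5 to 10 kb it was 7.41% and 7.50% against 16.0% and 16.2%, and at 20 to 50 kb 9.07% and 8.88% against 16.3% in both. Over 100 kb the shares came closest, with 11.9% and 11.8% against 13.3% and 13.1%, and these bins include Gm20388. In genes with a promoter peak in both libraries the share was 6.47% and 6.41% against 13.5% and 13.4%, and in the other genes 11.5% and 12.1% against 21.04% and 20.8%.

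The consensus sequences of ETS, RUNX and E proteins were more common in the peaks than in the intron around them, and nearly as common in later-intron peaks. ETS was in 17.1% and 17.2% of first-intron peaks and in 4.76% of windows outside peaks, a ratio of 3.60 ± 0.0077 (SD, n = 2), and the reversed consensus had a ratio of 0.840. RUNX was in 10.3% and 10.2% against 4.98% outside peaks, or 2.05 ± 0.010 times, with the reversed consensus at 0.750. Against later introns the share was 1.13 times for ETS and 1.02 times for RUNX. The E-box CAGCTG, bound by E proteins, was in 24.3% and 24.6% against 7.93% outside peaks, or 3.08 ± 0.023 times. The E-box CAGGTG was at 2.49 ± 0.024 times its 12.6% outside peaks. The reversed letters of these E-boxes had ratios of 1.47 and 0.915.

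TCF and LEF, AP-1, NFAT and GATA were not in such excess. Their ratios were not corrected for GC content, which was 54.0% and 53.9% in the peaks and 42.8% outside them. Values below 1 are therefore not shown to be a lack of such sites. The consensus of TCF and LEF was at 0.952 ± 0.014 times its share of 8.56% outside peaks, AP-1 (TGANTCA) at 1.12 ± 0.014 times 6.04%, NFAT (TGGAAA) at 0.726 ± 0.020 times 19.2% and the GATA consensus, AGATAA, was found 0.538 ± 0.012 times as often as its 12.5% (SD, n = 2). MYB was at 1.85 ± 0.0072 times 5.67%, with its reversed consensus at 2.41 times. The consensus of SP and KLF (GGGGCGG), which is frequent in promoters, was at 9.13 ± 0.25 times 0.821%, with its reversed form at 8.73. For both families the reversed letters were in a like excess. CRE (TGACGTCA), the site of cyclic AMP responsive factors, was at 6.88 ± 0.027 times 0.104% and 2.24 times the share of later introns, on 17 first-intron peaks of each library. This consensus holds a CpG, which was more frequent in first-intron peaks than in later-intron peaks or outside peaks. Its ratios were not corrected for this.

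**Figure D3:**
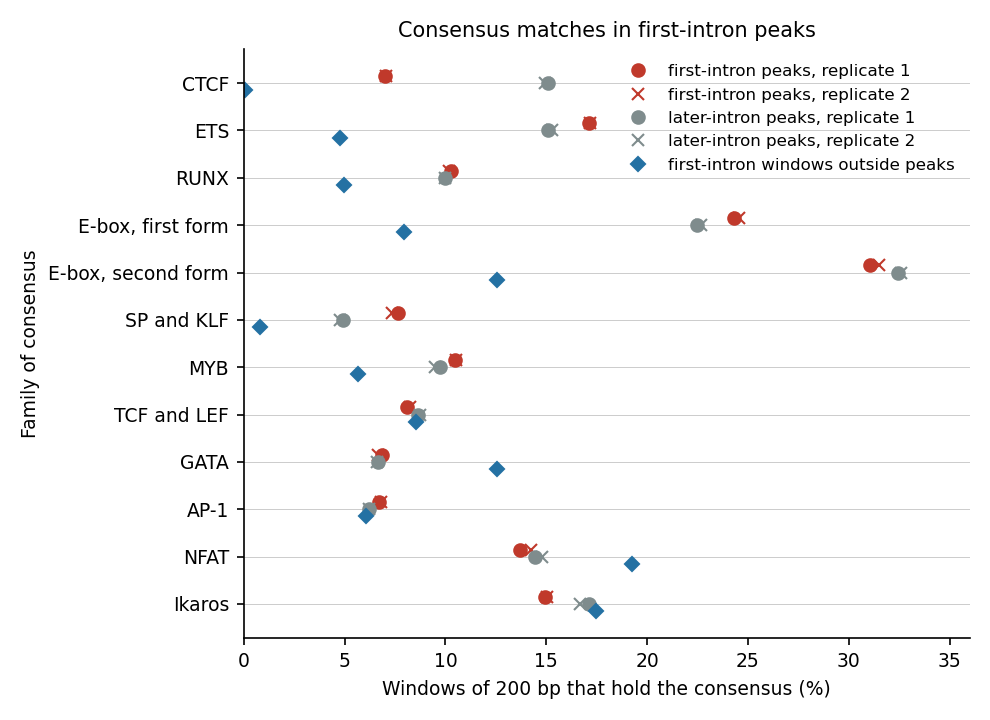
Percent of 200 bp windows that hold each consensus in first-intron peaks (red) and later-intron peaks (grey) of replicate 1 (circles) and replicate 2 (crosses), and in first-intron windows outside peaks (blue diamonds); the first E-box form is CAGCTG and the second CAGGTG. CTCF is at 7.02% and 7.06% in first-intron and at 15.08% and 14.94% in later-intron peaks, while RUNX and both E-box forms lie close together in both kinds of peak.

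The libraries ordered first-intron peaks alike. Over 2265 pairs in which 1 peak of each library matched 1 of the other, the Spearman correlation across peaks was 0.862, the SD of the log2 ratio was 0.447 and 81.5% of pairs lay within 1.5-fold of the median ratio. In later introns the values were 0.789, 0.525 and 70.7%, between genes 0.831, 0.514 and 70.9%, and at start sites 0.970, 0.347 and 90.8%. The first-intron values thus stood between those of start sites and those of other distal peaks.

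In the ratio of the libraries, first-intron peaks leaned towards replicate 2. The log2 ratio of replicate 2 to replicate 1 was centred on its median over 36500 pairs of shared autosomal peaks, which was -0.18, and pairs were classed by the peak of replicate 1. The median was 0.14 in 2272 first-intron pairs, of which 61.3% were above 0, and -0.08 in later introns, -0.12 between genes and 0.03 at start sites. By distance it lay between 0.10 and 0.18 in first introns in each bin up to 100 kb and between -0.19 and -0.04 in later introns, and over 100 kb at 0.00 and -0.01. Where the host had a promoter peak in both libraries it was 0.16 against 0.00 in later introns, and where it had none -0.15 against -0.39. In 82 pairs with a host in a T cell list it was 0.24, with 64 of 82 above 0, and in 105 such pairs of later introns 0.20.

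The CTCF consensus split the first-intron pairs more than any other of the 28 consensus families searched. First-intron pairs with it had a median signal of 2.16 in replicate 1 and 1.21 in replicate 2 and a centred log2 ratio of -0.58, and 153 of 165 were below 0. Pairs without it had a median of 0.17, and 65.5% of 2107 were above 0. Peaks with the CTCF consensus were the stronger ones in replicate 1, with a median signal of 2.16 against 1.60, and the weaker ones in replicate 2, with 1.25 against 1.51. The same shift appeared elsewhere, at -0.61 in later introns, -0.61 between genes and -0.43 at start sites. Among pairs without the consensus first introns were at 0.17, later introns at 0.06 and intergenic pairs at -0.01, a smaller difference than over all pairs.

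Single sites, chosen after their values were seen, show the shift. Sept9 had 8.09 in replicate 1 and 4.78 in replicate 2, and Klf3, a repressor of the KLF family, had 6.09 and 4.14. Bcl6, the repressor of follicular helper T cells, had 6.17 and 4.38. Agrp, the strongest with the consensus, had 11.1 and 10.2, a centred log2 ratio of 0.06. In T cell hosts 3 pairs held the consensus, and all were below 0, among them Rora with 2.39 and 1.02 and Cd247 with 4.18 and 2.90. In the opposite direction the pairs with an ETS match had 0.25, with 318 of 399 (79.7%) above 0. Those with RUNX had 0.25, with 176 of 238 (73.9%), and those with the E-box CAGCTG 0.24, with 400 of 552 (72.5%). Of all pairs without a CTCF consensus 65.5% were above 0. The shift was not particular to these families, as TCF and LEF had 0.25 and FOX 0.27, while Ikaros had 0.11 and NFAT 0.12.

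**Figure D4:**
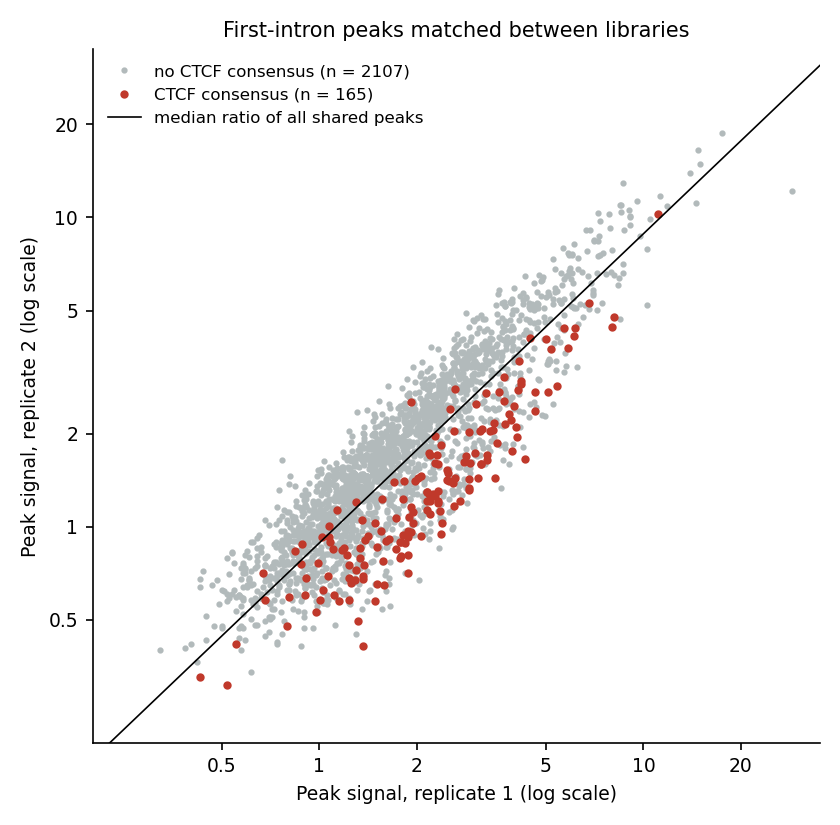
Signal of first-intron peaks matched between the libraries (log scales), with 165 pairs that hold a CTCF consensus in red, 2107 that do not in grey, and the median ratio of all shared peaks as a line. The red points lie almost all below the line (153 of 165), and the grey points mostly above it.

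**Figure D5:**
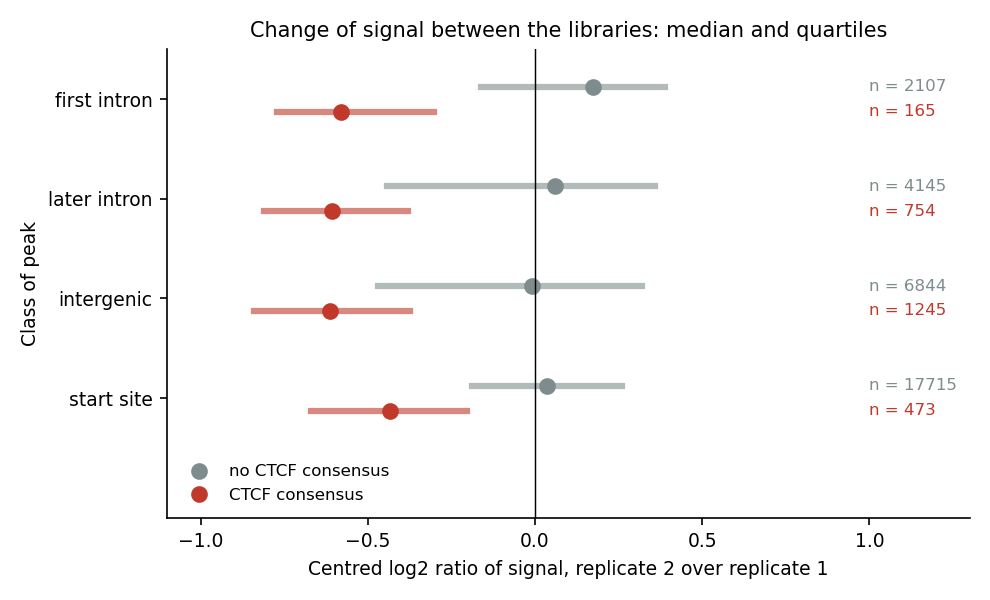
Median (point) and quartiles (bar) of the centred log2 ratio of signal of replicate 2 over replicate 1, by class of peak, for pairs with (red) and without (grey) a CTCF consensus; n counts pairs. Pairs with the consensus have medians from -0.61 to -0.43 in all 4 classes, and pairs without it are highest in first introns, at 0.17.

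The largest falls from replicate 1 to replicate 2 were in Dip2c, with 1.36 and 0.411, and in Htr2a, with 2.03 and 0.672. The largest rises were in Bcl7a, with 0.796 and 1.89, and in Prr5, with 0.770 and 1.64.

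Nearly all first-intron peaks held a footprint. The share was 93.7% in replicate 1 and 96.4% in replicate 2, or 95.1% ± 1.9 (SD, n = 2), where 91.9% and 93.7% of all shared autosomal peaks had one, and 96.0% and 97.2% of later-intron peaks. It followed the signal. From the lowest to the highest quartile of main-list signal it rose from 80.7% to 99.4% in replicate 1 and from 91.6% to 99.8% in replicate 2. Footprints in both libraries were found at 2216 of 2357 sites, 94.0%, and in neither at 39. Of single footprints 61.9% of 6741 and 56.7% of 7375 overlapped one of the other library. Every first-intron peak held a base with a listed false discovery rate of at most 0.001, as did every shared later-intron and intergenic peak. The value therefore does not set first-intron peaks apart, and the rate at which the main list was cut is not stated.

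Matches differed in how often they lay in footprints, counted here by the central base of the match. Footprints covered 18.8% and 19.5% of the bases of first-intron peaks. CTCF matches lay in one in 98.8% of 169 and 96.4% of 166 cases, and SP and KLF matches in 55.2% and 60.0%. TCF and LEF matches did so in 27.5% and 34.0%, and RUNX matches in 25.9% and 28.5%. Matches to the ETS consensus AGGAAGT lay in footprints in 12.5% and 15.4%, below the share of bases covered. So did AP-1 with 10.1% and 6.95% and GATA with 10.3% and 8.65%. A second ETS consensus, that of promoters, went the other way, with 27.3% of 33 and 45.7% of 35 matches in footprints. In replicate 1 it was in 30 first-intron peaks, at 10.9 times its share outside peaks, with the reversed consensus at 1.26 times. These ratios were not corrected for GC content.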

How the data were processed

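The assay was DNase-seq on 2 libraries of 1 group. The aligner, the peak caller and their settings were not given in the sources used here. Per the file notes, the authors made 2 peak lists, footprints and a false discovery rate track for each library from its own filtered alignments on mm10. The signal of a peak is the value the authors deposited with it, on a scale that is not stated, so that levels are compared within a library or as ratios centred on their median. The deposited FDR values (q-values) cover runs of bases below 0.05, and the footprint files hold a constant p-value of 0.01, so only footprint positions were used.

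Peaks were placed on GENCODE M21 in Python 3.11.15 with NumPy 2.4.6, pandas 2.3.3, SciPy 1.17.1 and Matplotlib 3.10.9. Eligible sequence is intron more than 1 kb from every start site and outside exons, and genes needed at least 1000 bp of it in the first intron. Later introns are the other introns of the same transcripts, outside every first intron. Consensus matches were counted in 200 bp windows around peak centres, beside tiled windows that touch no peak of either list. The steps were checked on simulated data. With 1 group no test between conditions exists, and with 2 libraries spreads are given as SD.

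The regions, gene lists and consensus families were chosen with earlier results of these data known. Named genes were the 15 strongest sites, the 12 genes with most sites, the 8 densest, 20 T cell genes, up to 3 genes of each other list, the 5 sites that changed most in each direction and the 4 farthest from their start. Some of these genes are not reported here. Alternatives covered transcript choice, distance limit, overlap, peak list, window, footprints, annotation and leaving out a library. Sex chromosomes were left out by the rule.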

Additional observations from a re-analysis of the deposited data

How the results depend on the processing

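The density ratio over all distances and the signal, consensus and library ratios below kept their direction under the alternatives run for them. The density ratios at like distance did not all keep it. Without Gm20388, the distance-matched density ratio went from 1.03 to 0.985 and that beyond 100 kb from 1.17 to 0.519. A count was taken as unchanged within 1.5 times, a percent of genes within its 95% Wilson interval, and other values within 1 SD over the 2 libraries, or within 10% where 1 value covers both; as those SDs are small, most shifts below are shifts of size. The settings without Gm20388, without introns that hold whole genes and with the basic annotation, and all runs for CTCF and the library ratio, were chosen after seeing the data. The number of sites was 4225 with the longer list and 998 with the stronger 50% of the main list. The percent of genes with a site was 13.8 by longest span, 11.99 at 50% overlap, 20.1 with the longer list, 6.22 with the stronger 50%, 14.3 with the basic annotation, and 15.3 to 16.5 without replicate 1 or 2. The density ratio was 1.34 by longest span, 1.19 beyond 2500 bp, 1.38 with protein-coding starts only, 1.45 with whole peaks inside, 1.35 at 50% overlap, 1.43 with the longer list, 1.70 with the stronger 50%, 1.33 without Gm20388, 1.33 without introns that hold genes, 1.42 with the basic annotation, and 1.28 to 1.49 without replicate 2 or 1. Promoter peaks were at 88.0% of hosts with the longer list and 89.3% with the stronger 50%. The footprint share was 89.3% with the longer list, 98.7% with the stronger 50%, 83.0% for footprints found in both libraries, and 89.7 to 91.3% without replicate 1 or 2. The RUNX ratio was 2.02 by longest span, 2.20 beyond 2500 bp, 2.07 with whole peaks inside, 2.12 at 50% overlap, 1.97 with the longer list, 2.25 with the stronger 50%, 2.10 without Gm20388, 2.10 without introns that hold genes, 1.97 with the basic annotation, 2.46 in 100 bp windows, and 1.89 to 1.92 without replicate 2 or 1. The CTCF ratio was 0.491 by longest span, 0.483 beyond 2500 bp, 0.486 with whole peaks inside, 0.457 at 50% overlap, 0.479 with the longer list, 0.508 with the stronger 50%, 0.442 without Gm20388, 0.447 without introns that hold genes, 0.439 with the basic annotation, and 0.448 to 0.494 without replicate 1 or 2. The SD of the log2 ratio between libraries was 0.400 with the stronger 50%. The lead of first over later introns in that ratio, 0.22, was 0.18 with the longer list and 0.10 with the stronger 50%. The cause of these shifts was not tested, except that shorter and longer lists hold fewer and more peaks. The difference of -0.75 between first-intron pairs with and without CTCF kept its size in all 10 alternatives. Of 72 site counts of single genes without 1 library, 62 were within 1.5 times of the count with both; without 1 library, peaks of the other needed no partner. No paired analysis was possible because there is only 1 group. Read depth is unknown, so peaks missing from a list are not shown to be closed.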
